A study of Saccharum hybrid cultivar with 68 samples.

Results

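The sugarcane miR397 family was represented by 4 of the 844 entries of the small RNA table: miR397-x, miR397-y, miR397-z and m0001-5p. The first 3 were taken by their name. The last, a predicted entry without a miR number that is written m0001-5p here (the deposited name puts a prefix for predicted entries before it), was taken because its sequence is nearly the same as that of miR397-x. All 4 had enough tags to be tested in leaf and across both tissues. In stem 3 were tested, and miR397-z was not. The 871 pairs of the degradome table, which lists a miRNA with an RNA it may cleave, held 4 pairs with a family member, and these named 4 of the 100182 assembled transcripts (unigenes) of the mRNA table.

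miR397 is a conserved plant microRNA, a short RNA that guides the cleavage of matching mRNAs, and its best known targets are the mRNAs of laccases. Laccases are copper enzymes of the cell wall that oxidise monolignols, so that these polymerise into lignin. In Arabidopsis, miR397 belongs with miR398, miR408 and miR857 to the microRNAs that accumulate when copper is short and that target mRNAs of copper proteins, and in grasses miR528 is known for targets of the same kind.

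The sequences are shown because the names hide how alike the entries are. Each is given 5′ to 3′ in DNA letters as deposited, with the seed (bases 2 to 8) in capitals.
m0001-5p: tTGAGTGCagcgttgatgagc
miR397-x: tTGAGTGCagcgttgatgatc
miR397-z: tTGAGTGCagcgttgatgagg
miR397-y: tCACCGGCgctgcactcaatt
All 4 sequences are 21 nt long. The first 3 share their leading 19 bases and the seed TGAGTGC, which no other entry of the table has. Counted from the 5′ end of m0001-5p, miR397-x differs from it by G20T and miR397-z by C21G. These 3 are called the near-identical entries here, and tags of 1 could be counted under another where a base was misread. miR397-y has another seed, CACCGGC, found in no other entry. Laid against m0001-5p, it forms 16 Watson-Crick and 2 G-U pairs over a window of 19 bases and leaves 2 unpaired bases at each 3′ end, the layout of the opposite strand of a microRNA duplex.

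Leaf and stem of ROC22 and GT86-887, sugarcane genotypes (*Saccharum* hybrid cultivar) that the series describes as contrasting in sucrose content, were sampled as the plants accumulated sucrose. Small RNA was sequenced in 8 groups of 3 libraries, ROC22 and GT86-887 in stem and leaf at the late and early stage, and mRNA in 12 groups of 3, with a middle stage added. The degradome, the 5′ ends of uncapped RNA fragments, was sequenced in 8 single libraries. No treatment, plant age or allele is given in the labels, and which genotype stores more sucrose was not stated in the sources read. Nothing in the labels ties the 3 libraries of a group to separate plants, so the tests below may measure technical spread alone.

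The small RNA libraries held 183654 to 1374497 tags in stem and 640674 to 1632186 in leaf, and the mRNA libraries 17970015 to 24929466 reads. Libraries were unlike in composition in stem, where the TMM factors (edgeR's correction for composition) ran from 0.450 to 2.13, against 0.833 to 1.23 in leaf. Among the small RNA stem libraries, library 3 of the ROC22 late group stood apart: its mean Pearson correlation with the other libraries of its group was 0.880, against 0.914 to 0.957 for the other 11. Among the mRNA libraries, library 1 of the GT86-887 middle group was the lowest in both tissues. It was at 0.928 in stem, where the next was at 0.957, and at 0.929 in leaf, where the next was at 0.954. The tissue labels could not be checked against marker genes, because the files give the unigenes no gene names. In such bulk samples, fewer cells of a type and less RNA per cell cannot be told apart.

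The family was most abundant in leaf at the early stage. Levels are given in unscaled CPM, the tag count relative to the library total, as mean ± SD over 3 libraries. This puts both tissues on one scale but does not correct for composition, which differed between libraries. Scaling without TMM moved the median stem minus leaf change of all tested entries up by 1.22 on the log2 scale. The order of stem and leaf groups of similar level may therefore depend on the scaling. m0001-5p, the most abundant of the 4, averaged 55333 ± 33046 CPM in ROC22 early leaf and 35536 ± 10711 CPM in GT86-887 early leaf, groups that overlapped. Next came ROC22 late leaf with 8249 ± 931 CPM, below every early leaf library and above every remaining library. ROC22 stem averaged 674 ± 59.4 CPM at the late and 2016 ± 449 CPM at the early stage, GT86-887 stem 977 ± 805 CPM at the late and 2343 ± 2178 CPM at the early stage, and GT86-887 late leaf 638 ± 57.1 CPM. From high to low these 5 groups ran GT86-887 early stem, ROC22 early stem, GT86-887 late stem, ROC22 late stem and GT86-887 late leaf, and each overlapped the next. In unscaled CPM, GT86-887 leaf thus went with the stem groups at the late stage, while ROC22 leaf did not.

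miR397-y, the opposite strand, followed the same steps at a lower level. It averaged 9636 ± 4996 CPM in ROC22 early leaf and 9751 ± 5387 CPM in GT86-887 early leaf, which overlapped, then 2863 ± 760 CPM in ROC22 late leaf, apart from its neighbours on both sides. The other 5 groups each overlapped the next in level, with ROC22 early stem the highest at 511 ± 129 CPM and GT86-887 late stem the lowest at 240 ± 263 CPM. By rank among the 844 entries, m0001-5p stood between 15 and 44 in stem libraries and between 3 and 29 in leaf libraries, and miR397-y between 36 and 97 in stem and 7 and 51 in leaf.

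The remaining near-identical entries were rare. miR397-x ranged from 284 ± 158 CPM in ROC22 early leaf to 2.97 ± 3.95 CPM in GT86-887 late stem, and miR397-z from 169 ± 106 CPM in ROC22 early leaf to 0.919 ± 0.796 CPM in ROC22 late stem. For both, ROC22 late leaf, with 47.1 ± 4.75 CPM of miR397-x and 27.8 ± 3.78 CPM of miR397-z, lay between the early leaf groups and all others without overlap. The plot of the 4 entries by library shows this step in each panel.

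**Figure D1:**
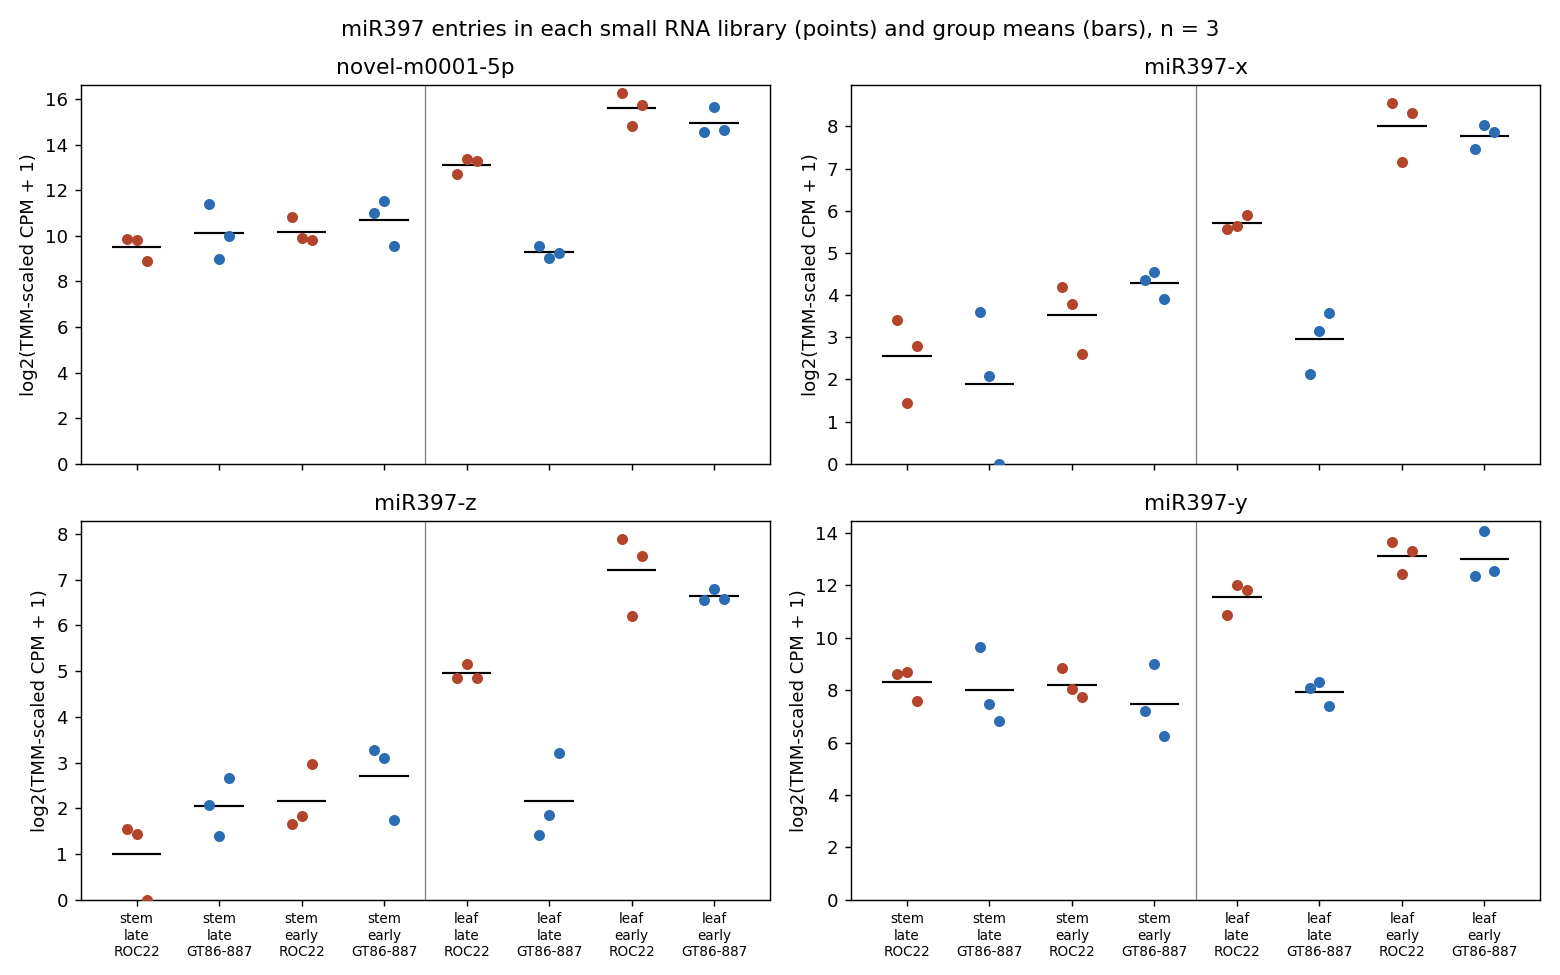
Level of each family entry in the 24 small RNA libraries, as log2(TMM-scaled CPM + 1), with TMM scaled within each tissue, so that stem and leaf heights are not on one scale. Points are libraries (ROC22 red, GT86-887 blue), bars are group means of 3, and in late leaf every ROC22 point lies above every GT86-887 point.

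m0001-5p made up nearly all tags of the near-identical entries in every library. Its share of the summed tags of m0001-5p, miR397-x and miR397-z ran from 97.9% to 99.6% in stem and from 96.9% to 99.3% in leaf, with the lowest value, 96.9% (95% Wilson interval 94.9% to 98.2%, counting error only), in GT86-887 late leaf library 3. For every 1000 tags of m0001-5p there were 0 to 18.8 of miR397-x in stem libraries (median 8.58) and 4.46 to 18.1 in leaf libraries (median 5.87). For miR397-z these figures were 0 to 7.46 in stem (median 2.62) and 2.15 to 13.6 in leaf (median 3.28). Whether miR397-x and miR397-z come from genes of their own or from misread tags of m0001-5p was not tested, so their changes are not separate evidence.

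In late leaf all 4 entries were higher in ROC22 than in GT86-887. m0001-5p was at 6775, 10703 and 9842 TMM-scaled CPM in the ROC22 late leaf libraries and at 754, 518 and 608 in those of GT86-887. The opposite strand, miR397-y, was at 1877, 4093 and 3638 CPM in ROC22 and at 273, 319 and 168 CPM in GT86-887. The groups did not overlap for either entry, and the lowest ROC22 library lay several times above the highest of GT86-887. How many of all tested entries were without overlap was not counted, here or in the comparisons below. The log2 fold change from edgeR's quasi-likelihood test was 3.86 ± 0.42 (SE, 14.5-fold) for m0001-5p, with a Benjamini-Hochberg adjusted p over all tested entries of 1.56e-06, and 3.66 ± 0.51 (12.6-fold, adjusted p = 1.97e-05) for miR397-y.

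The rare entries went the same way. miR397-x was at 46.5, 48.6 and 58.9 CPM in ROC22 late leaf and at 3.37, 7.91 and 11.0 CPM in GT86-887 late leaf, these from 2, 6 and 8 tags. miR397-z was at 27.9, 34.9 and 27.9 CPM in ROC22 and at 1.68, 2.64 and 8.25 CPM in GT86-887, from 1, 2 and 6 tags. Neither overlapped, but the GT86-887 values lie near 3 tags, which equal 3.95 to 5.05 CPM there. edgeR gave log2 fold changes of 2.74 ± 0.50 for miR397-x (adjusted p = 0.000307) and 2.78 ± 0.58 for miR397-z (adjusted p = 0.00107). All 4 of 4 tested entries thus passed an adjusted p below 0.05, where 32.2% of the 180 tested entries passed in either direction and 17.8% as higher. The 4 are not independent, since 3 are near-identical and miR397-y has the layout of their opposite strand. Here and below, their counts are therefore not counts of separate results. The median log2 change was 3.22 over the 4 entries and 0.14 over all tested. All 4 calls were kept when any single leaf library was left out.

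In early leaf the genotypes overlapped. m0001-5p was at 78127, 28600 and 54992 CPM in ROC22 and at 24178, 51617 and 25634 CPM in GT86-887. miR397-y was at 12750, 5585 and 10080 CPM in ROC22 and at 5278, 17238 and 5975 CPM in GT86-887. In each genotype library 2 stood away from the others, low in ROC22 and high in GT86-887. None of the 4 entries passed (0 by edgeR, 0 at an unadjusted p under 0.05, 0 by DESeq2), against 17.2% of all tested entries, with adjusted p of 0.209 for m0001-5p, 0.217 for miR397-z, 0.602 for miR397-x and 0.999 for miR397-y. This count rested on those libraries: without ROC22 library 2, m0001-5p (log2 1.41, adjusted p = 0.00539) and miR397-z (1.48, adjusted p = 0.0195) passed as higher in ROC22, and without GT86-887 library 2, m0001-5p passed (1.21, adjusted p = 0.0340).

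Between the early and the late stage the family fell in leaf of both genotypes. In ROC22 the 3 late leaf libraries lay below the 3 early ones for all 4 entries, whose values are given above. The log2 change, late minus early, was -2.57 ± 0.39 for m0001-5p (5.92-fold lower, adjusted p = 0.000266) and -1.56 ± 0.47 for miR397-y (2.96-fold lower, adjusted p = 0.0317). miR397-x, at 376, 142 and 317 CPM in ROC22 early leaf, fell by 2.44 on the log2 scale (adjusted p = 0.000537), and miR397-z, at 237, 73.1 and 181 CPM in ROC22 early leaf, fell by 2.44 (adjusted p = 0.000928). So 4 of 4 passed as lower, beside 14.4% of all tested entries in either direction and 5% as lower. The call of miR397-y was lost without ROC22 early library 1 (-1.53, adjusted p = 0.127), early library 3 (-1.91, adjusted p = 0.0738) or late library 1 (-1.48, adjusted p = 0.0820).

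In GT86-887 leaf all 4 entries fell as well. m0001-5p was 54.0-fold lower at the late stage than at the early stage (log2 -5.75 ± 0.46, adjusted p = 1.87e-08) and miR397-y 37.5-fold lower (log2 -5.23 ± 0.55, adjusted p = 2.59e-07). miR397-x, at 175, 259 and 234 CPM in GT86-887 early leaf, changed by -4.85 ± 0.50 (adjusted p = 2.59e-07). miR397-z, at 93.0, 111 and 94.3 CPM in GT86-887 early leaf, changed by -4.49 ± 0.56 (adjusted p = 2.76e-06). No late library overlapped an early one for any of the 4 entries, and the share of all tested entries without overlap was not counted. All 4 passed as lower, beside 28.9% of all tested entries in either direction and 12.2% as lower, with a median log2 change of -0.20 over all tested.

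The difference between the genotypes' stage changes was tested as an interaction, late minus early in ROC22 minus late minus early in GT86-887. It was 3.66 ± 0.67 on the log2 scale for miR397-y (adjusted p = 0.000682), 3.19 ± 0.54 for m0001-5p (adjusted p = 0.000380) and 2.42 ± 0.63 for miR397-x (adjusted p = 0.0207). For miR397-z, with few late tags, it was 2.05 ± 0.72 and did not pass (adjusted p = 0.125). So 3 of 4 entries passed, where 11 of the 180 tested entries did (6.11%), all of them in the same direction, and the median over all tested was 0.12. Those 11 include these 3 and the 7 entries of miR398, miR408 and miR528 given below. The share and the common direction are thus mostly those of entries reported here. The call of m0001-5p was kept in each of the 12 fits that left out a single library, with changes of 2.08 to 3.12. That of miR397-y was lost without GT86-887 late library 3 (2.83, adjusted p = 0.0587). That of miR397-x was lost in all 12 of them (1.31 to 2.34, adjusted p 0.0807 to 0.449).

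**Figure D2:**
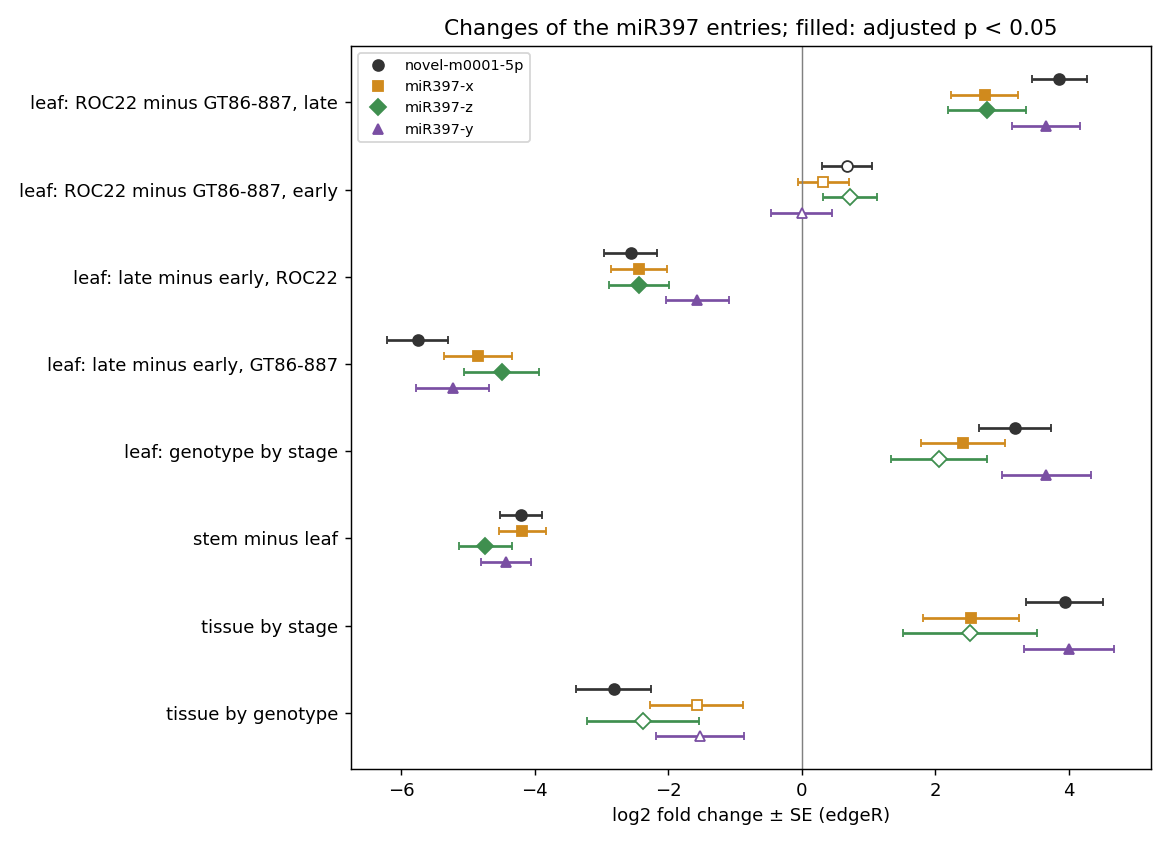
Log2 fold change ± SE (x axis) of each family entry in the comparisons named on the y axis, from edgeR, with filled symbols for an adjusted p below 0.05. In leaf the late genotype difference and both stage changes are filled for all 4 entries, and the early genotype difference for none.

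In stem no comparison of the family passed. m0001-5p was at 934, 903 and 479 TMM-scaled CPM in ROC22 late stem and at 2733, 508 and 1020 CPM in GT86-887 late stem. At the early stage it was at 1821, 954 and 910 CPM in ROC22 stem and at 2032, 2945 and 749 CPM in GT86-887 stem. All 4 groups overlapped, and the spread within GT86-887 was wider than any step between groups.

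The opposite strand was as spread. miR397-y was at 391, 417 and 189 CPM in ROC22 late stem and at 811, 178 and 112 CPM in GT86-887 late stem. At the early stage it was at 454, 261 and 214 CPM in ROC22 stem and at 148, 509 and 74.9 CPM in GT86-887 stem. miR397-x had 0 to 9 tags and miR397-z 0 to 4 tags in any stem library, where 3 tags equal 4.77 to 8.02 CPM, so most differences in these entries were not detectable at this depth.

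Over the 5 stem comparisons (genotype late and early, stage in each genotype and their interaction), 0 of the 3 tested entries passed in edgeR, 0 had an unadjusted p under 0.05, the lowest being 0.0714, and 0 passed in DESeq2. The adjusted p ran from 0.293 to 0.847 for m0001-5p, 0.742 to 0.944 for miR397-y and 0.379 to 0.945 for miR397-x. Of the 215 entries tested in stem, 30.7% passed between genotypes at the late stage and 17.7% at the early stage, 6.98% and 0% between stages in ROC22 and GT86-887, and 0% in the interaction. Without ROC22 late library 3, which stood apart, or without any other single stem library, the count of family entries was again 0.

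Over all stages and genotypes the family was lower in stem than in leaf. In unscaled CPM, m0001-5p had a lowest, median and highest level of 228, 1216 and 4778 in the 12 stem libraries and of 577, 16489 and 89715 in the 12 leaf libraries. miR397-y was at 58.2, 309 and 825 in stem and at 190, 4078 and 15921 in leaf. miR397-x was at 0, 8.23 and 36.6 in stem and at 2.89, 84.0 and 431 in leaf. The rarest, miR397-z, never exceeded 12.2 in stem and reached 272 in leaf. Stem and leaf overlapped in range for each entry, because late GT86-887 leaf lay among the stem values. The edgeR log2 change, stem minus leaf, was -4.20 ± 0.32 for m0001-5p (adjusted p = 8.46e-14), -4.44 ± 0.37 for miR397-y (adjusted p = 1.35e-12), -4.18 ± 0.35 for miR397-x (adjusted p = 9.18e-13) and -4.74 ± 0.40 for miR397-z (adjusted p = 1.36e-12). All 4 passed as lower, beside 71.9% of 285 tested entries in either direction and 30.5% as lower, and the median over all tested was 0.61. Scaling by library totals without TMM moved that median up by 1.22 and gave -2.93, -3.14, -2.98 and -3.57 for m0001-5p, miR397-y, miR397-x and miR397-z, all still past the threshold.

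The stage change, taken as a mean over the genotypes, also differed between the tissues. In leaf it was itself unlike between the genotypes, as given above. Late minus early in stem minus the same in leaf was 4.01 ± 0.67 for miR397-y (adjusted p = 0.000154), 3.94 ± 0.57 for m0001-5p (adjusted p = 1.99e-05) and 2.53 ± 0.72 for miR397-x (adjusted p = 0.0151), and miR397-z did not pass (2.52 ± 1.0, adjusted p = 0.0806). The 3 of 4 that passed stand beside 17.5% of all tested entries in either direction and 12.3% as higher, with a median of 0.36 over all tested. Without the libraries numbered 1, miR397-x was lost (1.47, adjusted p = 0.669), and without those numbered 3, miR397-z passed (3.65, adjusted p = 0.0343). The genotype difference in stem minus that in leaf was taken as a mean over the late and early stage. It passed for 1 of 4, m0001-5p (-2.82 ± 0.56, adjusted p = 0.000643), beside 10.2% of all tested in either direction and 4.21% as lower. This count depended on single sets of libraries, since all 4 entries passed without those numbered 3 (miR397-x -2.79, miR397-y -2.37, miR397-z -3.92). The median over all tested entries moved as well, from 0.18 in the full fit to -0.69 without those libraries. How much of the larger changes goes with that shift was not separated.

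The balance of the strands was unequal between groups, as a description without a test that was chosen after its values were seen. For every 100 tags of the near-identical entries there were 41.3, 46.0 and 38.9 of miR397-y in ROC22 late stem and 29.5, 34.7 and 11.0 in GT86-887 late stem. At the early stage there were 24.7, 26.9 and 23.2 in ROC22 stem and 7.17, 17.1 and 9.79 in GT86-887 stem. Early stem libraries of ROC22 all lay above those of GT86-887.

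In leaf there were 27.4, 38.0 and 36.6 miR397-y tags per 100 in ROC22 late libraries and 35.9, 60.4 and 26.8 in GT86-887 late libraries. At the early stage there were 16.2, 19.4 and 18.2 in ROC22 leaf and 21.6, 33.2 and 23.0 in GT86-887 leaf. Here the early libraries of ROC22 all lay below those of GT86-887, the opposite of stem, and in ROC22 each late library lay above each early one in both tissues.

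**Figure D3:**
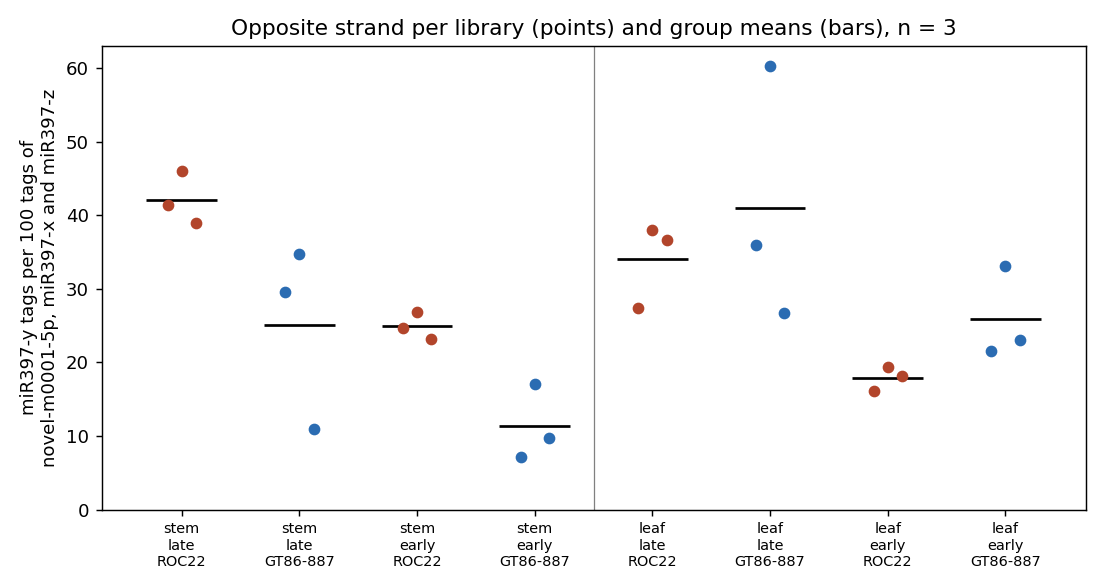
Tags of miR397-y per 100 tags of the near-identical entries (y axis) in each of the 24 small RNA libraries (points), with group means of 3 (bars), ROC22 in red and GT86-887 in blue. The ROC22 late stem libraries lie at 38.9 to 46.0 and the ROC22 early stem libraries at 23.2 to 26.9.

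Other copper microRNAs showed the same late leaf difference. The table held 8 entries of miR398, miR408 and miR528 and none of miR857, and 7 of the 8 were tested in leaf. Several entries belong to the same family, so the counts below are not of independent entries. miR398 is known for targets among copper/zinc superoxide dismutases and miR408 for targets among plantacyanins and laccases. In late leaf 7 of 7 were higher in ROC22 than in GT86-887, beside 17.8% of all tested entries, with a median log2 change of 3.86 against 0.14 over all tested. Without GT86-887 late library 3 this count was 6, and it stayed at 7 without any other single leaf library. Late minus early, 7 of 7 fell in GT86-887 leaf (12.2% of all tested, median -4.98 against -0.20). In ROC22 leaf 0 of 7 passed in edgeR (5% of all tested as lower, median -0.83 against 0.11), 3 had an unadjusted p under 0.05, and 2 passed as lower in DESeq2. That 0 changed when single libraries were left out. Then 4 passed as lower without ROC22 early library 2, 2 without ROC22 late library 2, and 1 each without GT86-887 early library 3 or late library 2. The GT86-887 libraries are not themselves compared here. The interaction passed for 7 of 7 as higher (6.11% of all tested, median 4.12 against 0.12), for 5 in DESeq2 and for 5 or 6 when any single leaf library was left out. Most of the entries behind that 6.11% are these 7 and the miR397 entries that passed.

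The most abundant entry of each family shows the levels. miR528-x was at 22053, 74454 and 32063 CPM in ROC22 late leaf, 1250, 641 and 1057 CPM in GT86-887 late leaf, 109440, 56840 and 96337 CPM in ROC22 early leaf and 23356, 42054 and 27385 CPM in GT86-887 early leaf. miR408-y was at 298, 773 and 391 CPM in ROC22 late leaf and 32.0, 15.8 and 27.5 CPM in GT86-887 late leaf. miR398-y was at 231, 454 and 363 CPM in ROC22 late leaf and 21.9, 43.5 and 11.0 CPM in GT86-887 late leaf. None of these late leaf groups overlapped. The genotype change in late leaf was 5.45 ± 0.49 for miR528-x (adjusted p = 1.37e-07), 4.28 ± 0.51 for miR408-y (adjusted p = 4.29e-06) and 3.76 ± 0.52 for miR398-y (adjusted p = 1.90e-05).

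In ROC22 leaf, where the miR397 entries passed, these entries changed from the early to the late stage by -1.03 ± 0.41 (miR528-x, adjusted p = 0.0920), -0.98 ± 0.43 (miR408-y, adjusted p = 0.126) and -0.97 ± 0.45 (miR398-y, adjusted p = 0.140). Whether the miR397 stage change in ROC22 differs from theirs was not tested. At the early stage miR528-x was already higher in ROC22 leaf (1.50 ± 0.41, adjusted p = 0.0142). In early leaf 2 of the 7 passed as higher and 2 as lower, beside 8.33% and 8.89% of all tested entries, and leaving out single libraries gave 0 to 2 in each direction. In stem 5 of the 8 were tested, and 1 passed, miR398-x, as lower at the late than at the early stage in ROC22, beside 2.79% of all tested. Its change was -3.85 with an adjusted p of 0.0159, and -3.97 with an adjusted p of 0.0590 with the replicate number as a block, a fit in which none of the 215 tested entries passed. The call was also lost without ROC22 stem early library 1 or 2 or late library 1 or 2 (adjusted p 0.0543, 0.108, 0.0671 and 0.0611). Stem minus leaf, 6 of 7 were lower, with a median of -4.48 beside 0.61 over all tested.

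**Figure D4:**
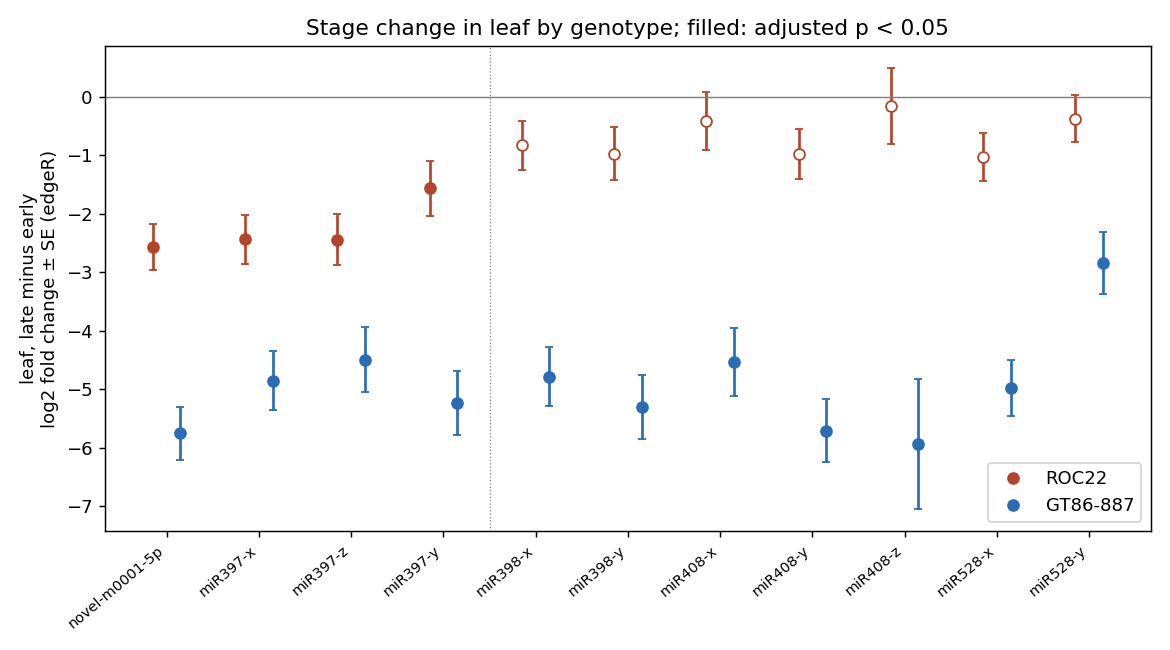
Log2 fold change ± SE in leaf, late minus early (y axis), of the 4 miR397 family entries (left of the dotted line) and 7 entries of miR398, miR408 and miR528, in ROC22 (red) and GT86-887 (blue), from edgeR, with filled points for an adjusted p below 0.05. All points of GT86-887 are filled, and in ROC22 those of the 4 family entries alone.

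The entries whose levels followed the family most closely were in part the same. The summed counts of the near-identical entries were correlated with each other entry of at least 10 CPM mean level, on log2(TMM-scaled CPM + 1). Over the 24 libraries the 5 highest Pearson correlations, of 190 entries, were those of miR408-y (0.974), miR408-z (0.950), miR528-x (0.942), miR408-x (0.917) and miR398-y (0.907), with a median of -0.017 over all 190. These points share the step between tissues, which other entries share too. Within the 12 leaf libraries the 5 highest, of 155 entries, were miR393-y (0.977), miR408-y (0.971), miR398-y (0.953), miR528-x (0.944) and miR393-z (0.944), with a median of 0.108. miR393 is known for targets among auxin receptor mRNAs.

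The degradome gave few tags for the family. miR397-y was paired with c133887.graph_c0, with 3 tags in a ROC22 leaf library of the early title code and 0 in the other 7. It was also paired with c126442.graph_c0, with 2 tags in a ROC22 leaf library, 2 in a GT86-887 leaf library and 1 in a GT86-887 stem library, all of the late title code. miR397-z was paired with c126144.graph_c0, with 1 tag each in ROC22 stem of both title codes and in GT86-887 leaf of the early one. Its other pair, c127564.graph_c1, had 1 tag, in ROC22 stem of the late title code. Stages were not compared here, since the libraries with a late title code are labelled with the middle growth phase.

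The abundant entry m0001-5p had no pair in the table, nor did miR397-x. Since miR397-z differs from m0001-5p in its last base alone, the tags of the miR397-z pairs cannot tell which of them guided a cut. Of the 31 entries with a mean of at least 1000 unscaled CPM, 22 had at least 1 pair. Each library had 2070 to 3033 summed tags over the 871 pairs, the median pair had 4 tags over the 8 libraries, and 40.6% of pairs were found in 1 library. None of the 4 unigenes was paired with another entry. With 1 library for each combination these tags have no replicate check, and because the files give the unigenes no name, whether any of them is a laccase mRNA cannot be told.

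c133887.graph_c0, paired with miR397-y, was a scarce unigene that was higher in ROC22 than in GT86-887 in middle and late leaf and in late stem. In leaf of ROC22 it was at 2.34, 3.43 and 3.30 TMM-scaled CPM at the early stage, 6.90, 5.16 and 4.82 at the middle stage and 7.63, 9.15 and 8.93 at the late stage. In leaf of GT86-887 it was at 2.32, 2.31 and 1.98 CPM at the early stage, 2.85, 1.82 and 1.55 at the middle stage and 1.58, 1.11 and 2.20 at the late stage. At the middle and the late stage the ROC22 libraries all lay above those of GT86-887. The deposited FPKM averaged 8.37 ± 0.825 in ROC22 late leaf and 1.43 ± 0.370 in GT86-887 late leaf.

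In edgeR, c133887.graph_c0 was higher in ROC22 leaf by 2.39 ± 0.28 on the log2 scale at the late stage (5.25-fold, adjusted p = 1.53e-05) and by 1.43 ± 0.27 at the middle stage (adjusted p = 0.00125), while the early stage did not pass (adjusted p = 0.212). Late minus early it rose in ROC22 leaf by 1.50 ± 0.26 (adjusted p = 0.000581) and did not pass in GT86-887 leaf (adjusted p = 0.288). The interaction of genotype and stage in leaf was 1.94 ± 0.39 (adjusted p = 0.0294), where 0.871% of the 37678 tested unigenes passed. That call was lost in 9 of the 18 fits that left out 1 leaf library: each of the 3 GT86-887 early libraries, GT86-887 late 1 and 2, ROC22 early 1 and 3, and ROC22 late 2 and 3. Over those 9 the change was 1.72 to 2.01 and the adjusted p 0.0541 to 0.0745. In late leaf both this unigene and miR397-y were thus higher in ROC22, while from early to late in ROC22 leaf the unigene rose and miR397-y fell.

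In stem c133887.graph_c0 was higher late than early in both genotypes. In ROC22 stem it was at 3.16, 3.02 and 4.07 CPM at the early stage, 6.96, 5.31 and 4.56 at the middle stage and 11.8, 13.1 and 12.7 at the late stage. In GT86-887 stem it was at 2.87, 1.99 and 1.95 CPM at the early stage, 6.55, 2.65 and 2.86 at the middle stage and 6.73, 6.74 and 4.86 at the late stage. Late libraries lay above early ones without overlap in each genotype, and ROC22 late above GT86-887 late. Late minus early the change was 1.88 ± 0.31 in ROC22 (adjusted p = 0.000845) and 1.43 ± 0.31 in GT86-887 (adjusted p = 0.00583), and the interaction did not pass (adjusted p = 0.747). The genotype change at the late stage was 1.04 ± 0.30 (adjusted p = 0.0142), lost without GT86-887 late library 3 (0.89, adjusted p = 0.0673).

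c126442.graph_c0, the other unigene paired with miR397-y, was lower in ROC22 at the late stage in both tissues. In stem it was at 102, 117 and 124 CPM in ROC22 late libraries and at 177, 182 and 172 CPM in GT86-887 late libraries, groups that did not overlap, with a log2 change of -0.64 ± 0.12 (adjusted p = 0.00143). In leaf it was at 296, 277 and 191 CPM in ROC22 late libraries and at 357, 313 and 479 CPM in GT86-887 late libraries, again without overlap. The leaf change was -0.59 ± 0.18 (adjusted p = 0.0215), and it was lost without ROC22 late library 3 (-0.41, adjusted p = 0.106) or GT86-887 late library 3 (-0.42, adjusted p = 0.103). Deposited FPKM averaged 73.2 ± 5.80 in ROC22 and 108 ± 4.07 in GT86-887 late stem, and 176 ± 37.7 and 219 ± 48.6 in late leaf. In early and middle leaf mean FPKM was higher in ROC22 (164 against 159 and 219 against 204), where mean CPM was lower. Why the measures differ was not tested.

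Late minus early, c126442.graph_c0 rose in GT86-887 leaf by 0.53 ± 0.18 (adjusted p = 0.0410), where the early libraries were at 324, 229 and 242 CPM and overlapped the late ones. In GT86-887 stem, with early libraries at 126, 132 and 142 CPM, it rose by 0.41 ± 0.12 (adjusted p = 0.0330). These calls were fragile: the leaf call was lost in 8 of 18 fits that left out a library (changes of 0.33 to 0.58) and the stem call in 6 of 18 (0.37 to 0.46). With the replicate number as a block the stem change was 0.41 with an adjusted p of 0.0552.

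For the unigenes paired with miR397-z no comparison of the genotypes passed in edgeR, and 1 came near, that of c127564.graph_c1 in early leaf. c127564.graph_c1 in leaf was at 41.5 ± 1.13, 29.2 ± 3.19 and 40.5 ± 3.84 CPM at the early, middle and late stage in ROC22 and at 55.8 ± 2.77, 29.7 ± 7.08 and 33.5 ± 7.04 CPM in GT86-887. Deposited FPKM of this unigene in early leaf lay further apart, at 24.9 ± 1.63 in ROC22 and 48.7 ± 7.45 in GT86-887. Its early leaf libraries were at 40.9, 42.8 and 40.7 CPM in ROC22 and at 54.6, 59.0 and 53.8 CPM in GT86-887, without overlap. The adjusted p of that difference was 0.0563 in edgeR, 0.0331 in DESeq2, 0.0294 with library totals and no TMM, and 0.0294 with the replicate number as a block, and it was below 0.05 without GT86-887 late library 2 or 3 or middle library 1 or 2 (0.0378, 0.0382, 0.0188 and 0.0313). Late minus early it fell in GT86-887 leaf by 0.73 on the log2 scale (SE 0.17, adjusted p = 0.00410), without overlap between the stages. In stem it was at 400 ± 40.9, 270 ± 32.1 and 262 ± 24.4 CPM in ROC22 and at 325 ± 15.1, 263 ± 22.6 and 244 ± 39.1 CPM in GT86-887 at these stages. The fall in ROC22 stem passed (-0.61 ± 0.14, adjusted p = 0.00659), and the change in GT86-887 stem did not (adjusted p = 0.0531).

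c126144.graph_c0 stayed within 36.6 to 42.2 CPM in the group means of leaf and within 60.0 to 74.1 CPM in those of stem. None of its 6 leaf comparisons passed (adjusted p 0.383 to 0.911), and none of its 6 stem comparisons did (0.197 to 0.967). Between tissues all 4 unigenes passed, beside 74% of 42119 tested unigenes. Stem minus leaf was 2.75 ± 0.07 for c127564.graph_c1 (adjusted p = 5.38e-25), 0.51 ± 0.06 for c126144.graph_c0 (adjusted p = 4.73e-09) and 0.40 ± 0.12 for c133887.graph_c0 (adjusted p = 0.00364), and -1.26 ± 0.07 for c126442.graph_c0 (adjusted p = 8.84e-17).

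By comparison, the 4 unigenes gave the following counts in edgeR. Between genotypes in leaf, 1 higher and 1 lower passed at the late stage (30.5% of all tested passed in either direction), 1 at the middle stage (27%) and 0 at the early stage (33.8%), where 1 had an unadjusted p under 0.05 and 1 passed in DESeq2. Between genotypes in stem, 1 higher and 1 lower passed at the late stage (32.2%), 0 at the middle stage (25.9%), with 0 at an unadjusted p under 0.05 and 0 in DESeq2, and 0 at the early stage (37.4%), with 1 at an unadjusted p under 0.05 and 0 in DESeq2. Late minus early, 1 passed in ROC22 leaf (28.3%), 2 in GT86-887 leaf (25.3%), 2 in ROC22 stem (18.2%) and 2 in GT86-887 stem (15.8%). In the stem interaction 0 passed (0.138%), with 1 at an unadjusted p under 0.05 and 0 in DESeq2. With 4 unigenes, nothing is read from these counts about the pairs as a group.

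**Figure D5:**
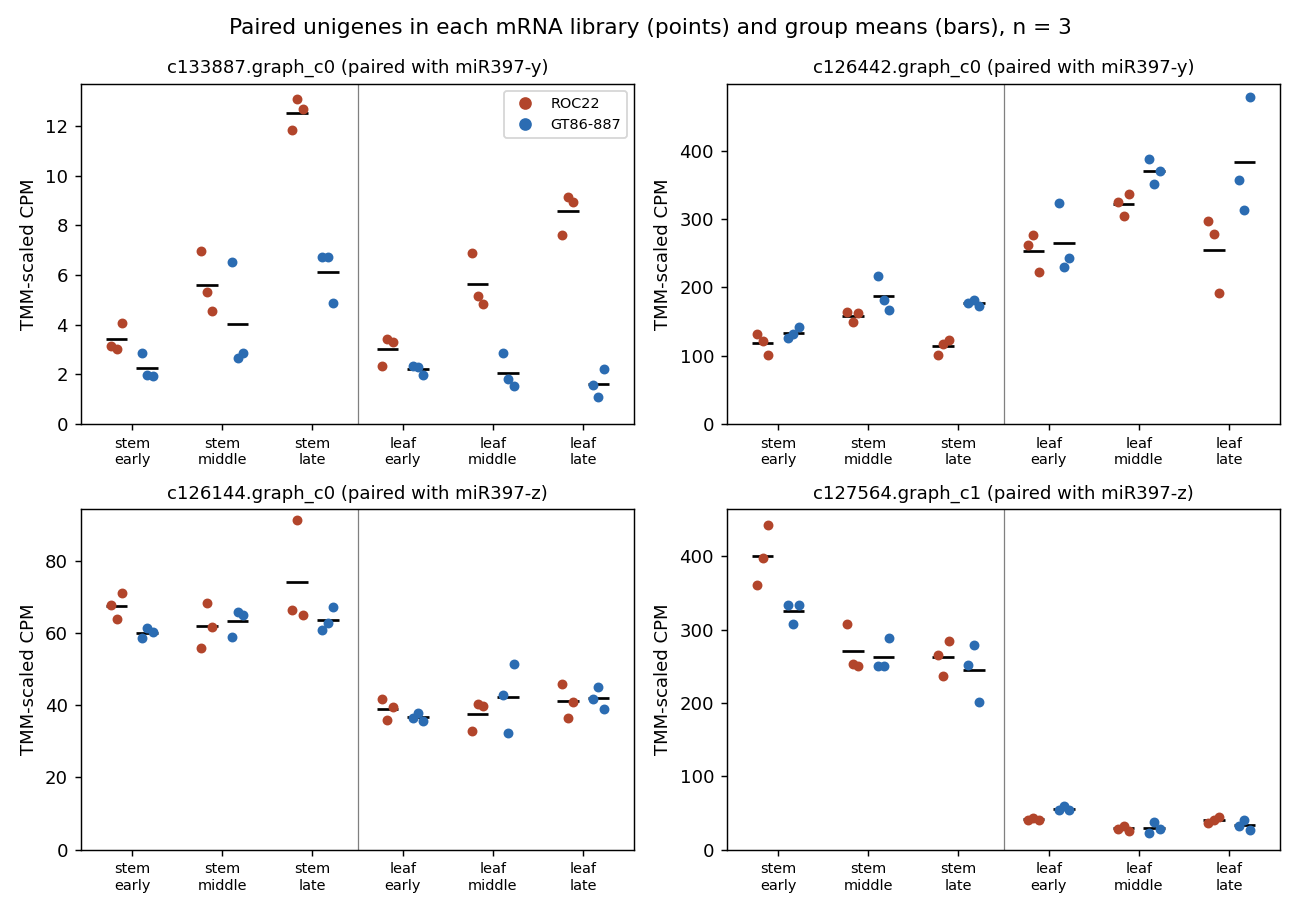
TMM-scaled CPM (y axis, scaled within each tissue) of the 4 unigenes paired with a family entry, in the 36 mRNA libraries by tissue and stage (x axis). Points are libraries, ROC22 in red left of GT86-887 in blue, and bars are group means of 3. c133887.graph_c0 lies at 7.63 to 9.15 in ROC22 late leaf and at 1.11 to 2.20 in GT86-887 late leaf.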

How the data were processed

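RNA was isolated with Trizol, small RNA of 18 to 30 nt was gel-selected, and degradome libraries captured fragments with a 5′ monophosphate, per the labels' protocols. The authors deposited a tag count and the sequence of each miRNA entry, beside a TPM, per the file headers. For mRNA the authors deposited a count per unigene and, per the file headers, an FPKM. TPM and FPKM, as deposited, were not tested, and TPM implied library totals of 0.996 to 1.001 times the sums of the counts. The authors' degradome tags were used as deposited. The 8 columns headed as normalised tags equal the raw tags and were not used. Aligner, assembly, miRNA database and target caller: not given in the sources used here.

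Counts were tested with edgeR 4.0.16 (limma 3.58.1) in R 4.3.3: TMM, filterByExpr, common and trended dispersion, quasi-likelihood test, Benjamini-Hochberg adjustment over all features, threshold 0.05. Leaf and stem were fitted apart, and both together for comparisons between them. Scripts were tested on simulated data. DESeq2 1.42.0, no TMM, no filter, a replicate block, summed near-identical entries, scaling without the most abundant entry and left-out libraries were the alternatives. Each fit without a library was filtered and scaled anew, so the tested set changed too. Without ROC22 early leaf library 2, for example, 185 small RNA entries were tested in leaf in place of 180. What such a fit owes to the library and what to the tested set was not separated. Tables and figures used pandas 2.3.3 and matplotlib 3.10.9. Samples were grouped by the genotype, tissue and growth phase labels and the titles. No libraries held identical values.

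The 4 members, every paired unigene and the copper families (miR398, miR408, miR528, miR857, of each the most abundant entry) were named, and the 5 entries most like the summed near-identical entries, over 24 and over 12 leaf libraries. Members, lists and tests were chosen with earlier results of these data known.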

Additional observations from a re-analysis of the deposited data

Results flagged for a closer look

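Some results stood out because the same contrast differed between groups by a test of the difference itself. The stage change in leaf differed between ROC22 and GT86-887 for miR397-y (interaction 3.66 on the log2 scale), m0001-5p (3.19) and miR397-x (2.42), and for the unigene c133887.graph_c0 (1.94). As a mean over the genotypes, the stage change differed between stem and leaf for miR397-y (4.01), m0001-5p (3.94) and miR397-x (2.53). As a mean over the stages, the genotype difference differed between stem and leaf for m0001-5p (-2.82). The entries miR397-x and c133887.graph_c0 lost the leaf interaction in 12 of 12 and 9 of 18 fits that left out 1 library.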

How the results depend on the processing

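Each change that passed was read again in every other fit, and a reading here is 1 change in 1 fit. For the family, 135 of 138 readings under the other settings kept their direction and side of the threshold. With libraries left out 187 of 204 did, and for the unigenes 65 of 68 and 220 of 246. Readings with the near-identical entries summed repeat 1 test for each of them. None that passed reversed. The change of miR397-y in early leaf, near 0, reversed with DESeq2 (0.18), the replicate block (0.20) and without the most abundant entries miR166-y and miR396-x (0.12), and ran from -0.18 to 0.84 with libraries left out. The count of entries for the genotype difference in stem minus that in leaf was 2 with DESeq2, 2 without a filter, and 1 to 4 with libraries left out. With the near-identical entries summed into 1, both that sum (-3.50, adjusted p = 4.35e-05) and miR397-y (-2.30, adjusted p = 0.0174) passed in edgeR. In that fit the median over all tested entries was -0.42, against 0.18 in the main fit, so the scaling of the whole comparison moved too. Left-out counts were 0 to 2 for the genotypes in early leaf and 1 to 2 for the leaf interaction, where the full fit called 3. The leaf interaction of miR397-x was lost with no TMM (2.30, adjusted p = 0.0839) and without the most abundant entries (2.04, adjusted p = 0.138). Its difference in stage change between tissues was lost with no TMM (1.53, adjusted p = 0.209).

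Counts of unigenes became 1 with DESeq2, no TMM and the replicate block for the genotypes in early leaf (c127564.graph_c1 in each), 1 with no TMM for the stage in GT86-887 leaf (c126442.graph_c0 0.44, adjusted p = 0.0828), and 1 with no filter and the replicate block for the stage in GT86-887 stem (c126442.graph_c0 0.41, adjusted p = 0.144 and 0.0552). With libraries left out they were, in leaf, 0 to 1 for the early and 1 to 2 for the late genotypes, 1 to 2 for the stage in GT86-887 and 0 to 1 for the interaction. In stem they were 0 to 1 for the early and middle and 1 to 2 for the late genotypes, and 1 to 3 for the stage in GT86-887. For the early and middle genotypes in stem, the count of 1 came only without GT86-887 middle library 1, which stood apart. The cause of these losses was not tested. Same-numbered libraries were little alike on average: small RNA libraries had deviations with a mean correlation of -0.039 in stem and -0.049 in leaf, and mRNA libraries of -0.044 in stem and 0.044 in leaf. Above 0.1 were 4 of 18 such pairs in small RNA stem, 2 of 18 in small RNA leaf, 7 of 45 in mRNA stem and 15 of 45 in mRNA leaf (highest 0.319). Such means cannot tell whether libraries of some groups were paired. Of the calls in the report, the block also ended those of miR398-x in ROC22 stem (adjusted p = 0.0590) and of miR408-x between genotypes in early leaf (adjusted p = 0.0585), and it changed no other. The settings run for the copper list were chosen after seeing the data. Scaling by library totals moved the median of all entries by -0.80 to 0.71 in the stem comparisons and by -0.87 in the difference of stage change between tissues, and the other settings moved it by -0.24 to 0.22 in leaf. Between tissues, DESeq2 moved it by -0.50 for the stage change, and summing the near-identical entries by -0.60 for the genotype difference. Depth limits miR397-x and miR397-z in stem and in late GT86-887 leaf.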
